A study of Homo sapiens with 4 samples.

Results

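The ERK feedback genes DUSP1, DUSP4, DUSP5, DUSP6, DUSP10, SPRY2, SPRY4, SPRED1 and SPRED2 were examined in the cell line MDA-MB-231, which was established from a human breast cancer without hormone receptors or amplified HER2. These 9 genes were taken by symbol from a deposited table of 43596 transcripts of 15113 genes, in which all 9 were listed, with 21 transcripts. The cells had been treated for 24 h with the solvent DMSO or with 10 µM KH-3, a small molecule that blocks the RNA-binding protein HuR, and 2 biological replicates per condition were sequenced as mRNA libraries. All 4 libraries come from 1 cell line with no genetic change between the groups, and the groups differ only in the agent. The value of a transcript is its mean normalized read count, averaged by the authors over libraries. The methods also name a group given a lower dose of KH-3, which is not analysed here, and no source says whose libraries this mean covers. The total reads per library and the spread between replicates are unknown, so the levels below are a description with no test. The table also holds the authors' own contrast of KH-3 with DMSO, which is not reported here, and no response of these genes to KH-3 is described.

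ERK is the last kinase of the RAS-RAF-MEK-ERK cascade, which carries growth factor signals to the nucleus. The dual-specificity phosphatases remove phosphate from both the threonine and the tyrosine of the activation loop of MAP kinases and so switch them off. Sprouty and SPRED proteins act further upstream, where they dampen signalling from receptor tyrosine kinases to RAS and RAF. Many of these genes are themselves induced by ERK activity, which closes a negative feedback loop. HuR binds AU-rich stretches in the 3′UTR of mRNAs, the untranslated part after the stop codon, and short-lived feedback mRNAs often carry such stretches.

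The AU-rich stretches of these genes are shown first, since the treatment was aimed at a protein that binds them. The pentamer AUUUA was counted, overlapping matches included, on the sense strand of the 3′UTR of the leading coding transcript, which is the coding transcript with the highest level per kb. One site was chosen for each of 5 of the 6 genes that hold the longer form UAUUUAU, after the sites had been seen: the one with most pentamers, otherwise the first. DUSP4 also holds this form, and no sequence of it is shown here. Each line gives the 7 bases of UAUUUAU with 10 bases on either side, 5′ to 3′ in mRNA letters, with every AUUUA in capitals.
DUSP1: ggcugguccuuAUUUAUUUAacuucac
SPRY2: guguaaagaauAUUUAuuugaaguuuu
SPRY4: uaaccauagguAUUUAuugauuggagg
SPRED1: aaagcAUUUAuAUUUAuaugacagcuu
SPRED2: caagugccccuAUUUAuuucaauaaga

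In hg38 these sites lie at chr5:172768644-172768670 on the minus strand for DUSP1, chr13:80336123-80336149 on the minus strand for SPRY2, and chr5:142312398-142312424 on the minus strand for SPRY4. Those of SPRED1 and SPRED2 lie at chr15:38353350-38353376 on the plus strand and at chr2:65311456-65311482 on the minus strand. All are in the 3′UTR of the leading coding transcript as annotated in GENCODE release 44. In the DUSP1 and SPRED1 sites 2 pentamers stand close together, sharing a base in DUSP1.

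The pentamer was found in 7 of the 9 genes. Over all 11441 genes with an annotated 3′UTR in their leading coding transcript, 71.2% held at least 1, so a count of 7 of 9 is near the background. The heptamer was found in 6 of the 9 genes, against 33.4% of all genes of any 3′UTR length. The 6 are SPRED1, DUSP4, SPRY4 and SPRED2 with 5585, 3962, 3782 and 2650 bases of 3′UTR, and DUSP1 and SPRY2 with 666 and 782. The median 3′UTR length was 1107 bases in the 9 genes and 1157 bases in all. No heptamer share was computed among genes of like 3′UTR length, so part of this difference may follow length. DUSP1, an immediate early phosphatase of the nucleus, had 4 pentamers in only 666 bases of 3′UTR, or 6.01 per kb, which is at percentile 93.9 of all genes. SPRED1 had 24 pentamers in 5585 bases, at percentile 98.6 by number and 85.6 per kb. DUSP1 thus had the most pentamers per kb of the 9 genes and SPRED1 the largest number. By share of A and U, the 3′UTR of SPRY2 was the highest of the 9 with 69.6% and that of SPRY4 the lowest with 51.5%.

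DUSP5 and the leading transcript of DUSP6 had 0 pentamers in 1107 and 885 bases of 3′UTR. SPRY2 had 2 in 782 bases, 36 bases apart within UAUUUAU contexts, and DUSP10 had 3 in 988 bases. SPRY4 and DUSP4 had 8 and 6, but their 3′UTRs were 3782 and 3962 bases long, and genes in the same decile of 3′UTR length had a median of 7. SPRED2 had 5 in 2650 bases, equal to the median of 5 of its own decile. The decile medians were 1 for DUSP1 and SPRY2, 2 for DUSP10 and 13 for SPRED1. Among genes of like 3′UTR length, 5 of the 9 were above the median: DUSP1, DUSP10, SPRY2, SPRY4 and SPRED1. By its definition a median has about as many genes above it as below, ties aside, so 5 of 9 is near the background. The leading DUSP5 transcript has 2477 bases in release 44 against 2557 in the table, and bases absent from the release 44 model were not searched. A match is a description of the letters only, and binding by HuR was not measured here.

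**Figure D1:**
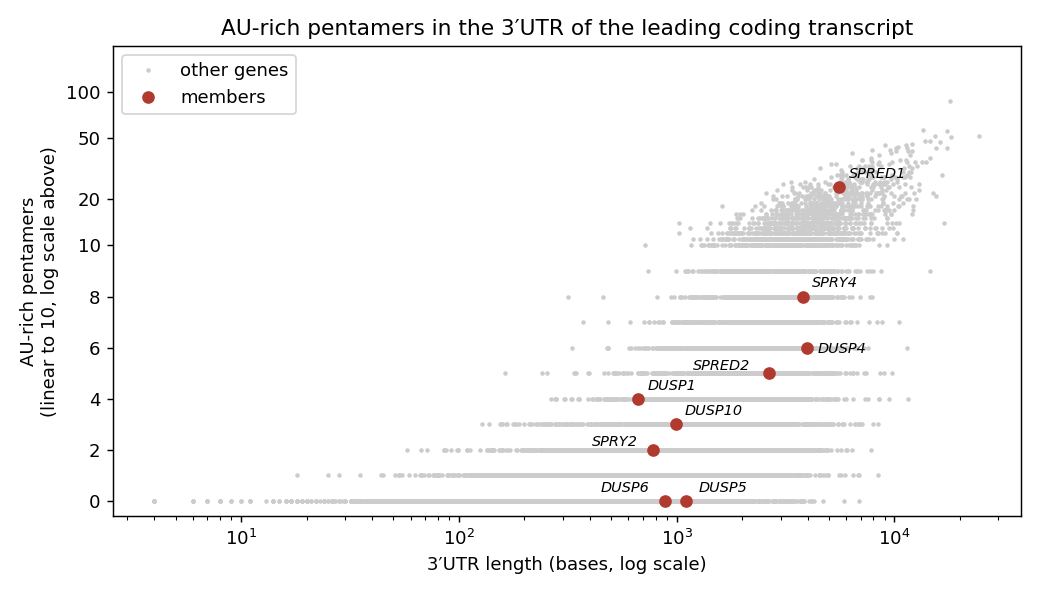
Number of AUUUA pentamers (linear to 10, log scale above) against 3′UTR length in bases (log scale) in the leading coding transcript, 1 point per gene, with the 9 genes in red and all other genes in grey. SPRED1 stands at 24 pentamers, DUSP1 has 4 in a short 3′UTR, and DUSP5 and DUSP6 lie on the zero line.

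Reads rise with transcript length, so levels were compared between genes as mean normalized reads per kb, summed over the transcripts of a gene. DUSP6, the cytoplasmic phosphatase that acts on ERK itself, had the highest level of the 9 genes with 4769.7 per kb, at rank 133 of the 15113 genes. DUSP4, a nuclear phosphatase of ERK, JNK and p38, followed with 1663 per kb. DUSP1 had 783 per kb and SPRY4, a Sprouty protein that inhibits RAS activation, 782 per kb. DUSP1 and SPRY4 were thus close by this sum, with a ratio of 1.00, while DUSP6 was 2.87 times as high as DUSP4. SPRY4 had 658 per kb with leading transcripts only and 707 with the longest transcript as the length, against 783 for DUSP1 in both. Without length correction SPRY4 was the higher of this pair, with a summed mean of 3490 against 1581. The ratio of DUSP6 to DUSP4 fell to 2.05 with coding transcripts only, 1.27 with leading transcripts only and 1.14 with the longest transcript as the length, and it was 0.906 without length correction, where DUSP4 was the higher.

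DUSP5, a nuclear phosphatase that binds ERK, had 541 per kb and SPRY2, which binds GRB2 and CBL, 465 per kb. SPRED2 and SPRED1, membrane-bound proteins that bring neurofibromin to RAS, had 401 and 187 per kb. DUSP10, whose protein acts mainly on JNK and p38, was the lowest with 70.2 per kb, so the 9 levels spanned 67.9-fold, or 28.8-fold with the longest transcript of each gene as the length. Without values per library it cannot be said which neighbours in this order differ beyond their spread, and the steps from DUSP5 to SPRY2 and from SPRY2 to SPRED2 were 1.16-fold each.

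**Figure D2:**
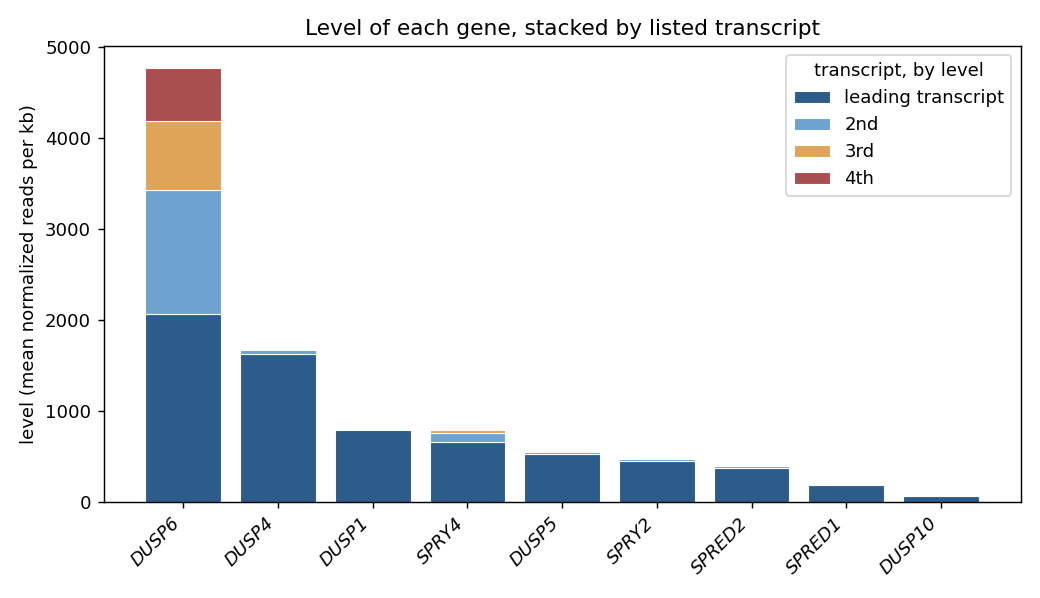
Level of each of the 9 genes in mean normalized reads per kb, as the authors' mean over libraries, stacked by listed transcript from the highest level at the base. DUSP6 is spread over 4 transcripts and reaches 4769.7, while in most other genes 1 transcript makes up nearly the whole bar.

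Against all genes of the table, 8 of the 9 were above the median of 108 per kb, and the median of the 9 was 541 per kb. DUSP10 alone was below, at percentile 41.2. The upper quartile of all genes began at 316 per kb and was exceeded by 7 of the 9, all but SPRED1 and DUSP10. SPRED1 was at percentile 62.7. DUSP6 and DUSP4 were at percentiles 99.1 and 96.1 by this summed level, among the highest genes of the table. The sum for DUSP6 includes 1361 per kb of a short processed transcript. Its level was 1877 per kb with the longest transcript as the length, and no percentile was computed for that setting. The table lists no transcript with a mean under 7.34, so the median of all genes refers to listed genes only. Of the 15113 listed genes 12120 have a listed coding transcript, as all of the 9 do. No percentile among those genes alone was computed.

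**Figure D3:**
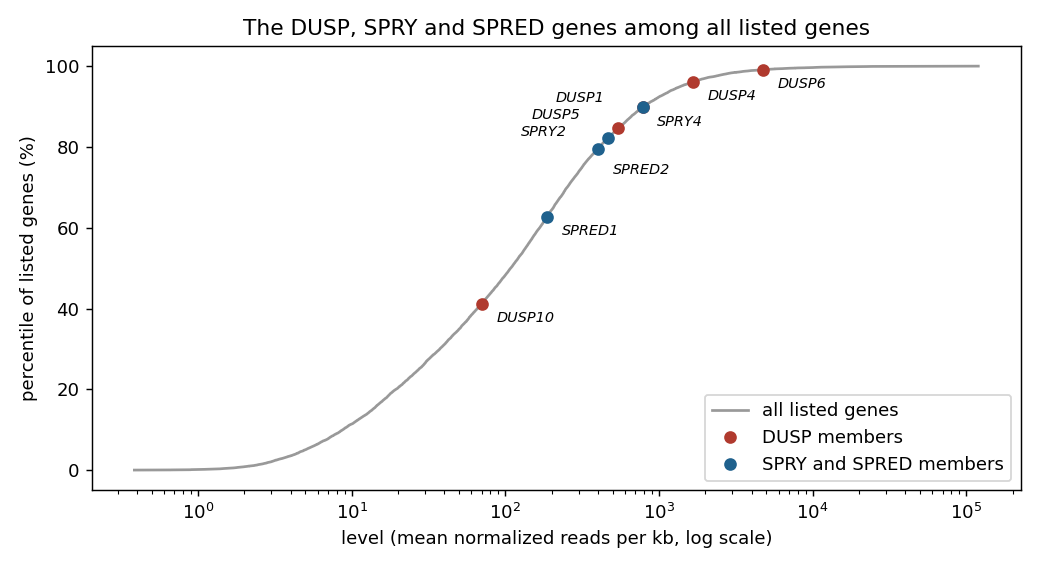
Percentile of each listed gene (vertical axis, %) against its level in mean normalized reads per kb (log scale), with all 15113 genes as the grey line, DUSP genes in red and SPRY and SPRED genes in blue. The points of DUSP1 and SPRY4 coincide near percentile 89.8, and DUSP10 lies apart at 41.2.

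In DUSP6 the leading transcript held a smaller share than in any other of the 9 genes. This transcript, DUSP6-002 (ENST00000308385.6, 1959 bases), had a mean normalized read count of 4033, which is 2059 per kb and 43.2% of the gene. DUSP6-001 (ENST00000279488.7), the longest at 4400 bases, had a mean of 2583, or 587 per kb and 12.3% of the gene. The short transcripts DUSP6-004, a processed transcript of 604 bases, and DUSP6-005, of 1074 bases, had 1361 and 763 per kb. The coding sequence of DUSP6-002 lies wholly within that of DUSP6-001 and lacks 438 bases of it, leaving 235 codons against 381.

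In release 44 DUSP6-002 shares 100% of its exonic bases with the other listed DUSP6 transcripts, so its level rests on how shared reads were divided by the authors' software. The shorter form also has the shorter 3′UTR, with 885 bases against 2019, and DUSP6-001 holds 1 pentamer there where DUSP6-002 has 0. The 3′UTR of DUSP6-001 was read from a model of 3627 bases in release 44, shorter than the 4400 bases of the table, so bases absent from that model were not searched. A shorter coding sequence and an earlier 3′ end cannot be told apart in these values. With the leading transcript alone DUSP6 had 2059 per kb, and with its summed reads over its longest transcript 1877 per kb, still the highest of the 9 by both. One antisense gene, ENSG00000274021, overlaps 1105 of the 3859 exonic bases of DUSP6. It was sought among the listed genes by its release 44 name only, so whether it is listed under another name is not known. Whether the libraries kept strand is not given in the sources used here, so reads of the pair may not be separable.

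The other genes were carried mainly by 1 transcript. DUSP1 had only DUSP1-001 (ENST00000239223.3), with a mean of 1581. DUSP4-001 (ENST00000240100.6) had a mean of 9009.6 and 97.8% of the level of DUSP4, against 107 for DUSP4-002, which shares 749 of its 909 coding bases with the leading one. DUSP5-001 (ENST00000369583.3) had a mean of 1342 and 97.0% of its gene. DUSP10-001 (ENST00000366899.3) had 154, and DUSP10-003, annotated as a target of nonsense-mediated decay, the pathway that removes mRNAs with an early stop codon, had 20.6. In DUSP10 this decay transcript was 18.0% of the level per kb and 11.8% of the reads, at the low counts of that gene. In release 44 DUSP10-003 shares 96.4% of its exonic bases with DUSP10-001, so its level rests largely on how shared reads were divided.

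SPRY2 was listed with a pair of transcripts that differ in their start and share the same coding sequence of 945 bases. SPRY2-001 (ENST00000377104.3) had a mean of 937 and SPRY2-002, which begins 1467 bases downstream in release 44, 58.7. The transcript with the upstream start was thus assigned 95.3% of the level. In that release the pair share 77.9% and 65.8% of their exonic bases, so the split rests in part on how shared reads were divided. SPRY4-001 (ENST00000344120.4) had 3251, or 84.2% of its gene, and SPRY4-002, which lacks 69 coding bases, had 221. In release 44 these transcripts share 98.9% and 99.6% of their exonic bases with the other listed SPRY4 transcripts. However, SPRY4-002 is 2379 bases long in the table but 4904 in release 44. The overlap in the models the authors used is therefore not known, nor how far this split rests on how shared reads were divided. SPRED1-001 (ENST00000299084.8), with 7780 bases the longest transcript of the group, had 1384 and 95.1% of the level. SPRED2-001 (ENST00000356388.8) had 1494 and 91.0%. SPRED2-005, of 467 bases, had 13.0, or 6.94% of the level, and SPRED2-008, which begins at another start, had 15.2, or 2.10%. Of the 21 listed transcripts 16 were annotated as coding in the table, 4 as processed transcripts and 1 as a decay target, and 5 had a mean under 20.

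DUSP1 and SPRY4 lie on the same chromosome and the others each on one of its own. On the minus strand of hg38 are DUSP1 (chromosome 5, 172768096 to 172771195), SPRY4 (chromosome 5, 142310427 to 142326455), DUSP4 (chromosome 8, 29333064 to 29350684), DUSP6 (chromosome 12, 89347235 to 89352501), DUSP10 (chromosome 1, 221701424 to 221742089), SPRY2 (chromosome 13, 80335976 to 80341126) and SPRED2 (chromosome 2, 65310851 to 65432637). On the plus strand are DUSP5 (chromosome 10, 110497907 to 110511533) and SPRED1 (chromosome 15, 38252836 to 38357249).

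The 9 genes were then set beside the rest of their families. The 9 had been chosen with earlier results of these data known, so their share of a family is a description only. Of the 10 MAP kinase phosphatase genes 9 were listed, and the 5 members made up 95.2% of their summed level of 8224 per kb. DUSP6 alone was 58.0% and DUSP4 20.2% of it, against 37.9% and 30.0% with leading transcripts only. Grouped by what the proteins are known for, the cytoplasmic ERK phosphatases DUSP6, DUSP7 and DUSP9 held 61.4%, the nuclear inducible ones DUSP1, DUSP4 and DUSP5 held 36.3%, and the JNK and p38 phosphatases DUSP8, DUSP10 and DUSP16 held 2.27%. The order of the first pair of groups depended on how transcripts were combined. With coding transcripts only the cytoplasmic group held 54.0% and the nuclear group 43.5%. The nuclear group was the higher with leading transcripts only, at 54.1% against 42.8%, with the longest transcript as the length, at 55.9% against 40.7%, and without length correction, at 54.8% against 41.7%. DUSP2, the fourth nuclear phosphatase, has no row in the table used here.

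Among the phosphatases outside the 9, DUSP7 was the highest with 259.5 per kb and DUSP8 the lowest with 7.49. DUSP16 had 109 per kb, more than the 70.2 of DUSP10, which acts on the same kinases. Of the 7 Sprouty and SPRED genes 6 were listed, and the 4 members made up 88.4% of their sum of 2075 per kb. SPRY4 held 37.7%, SPRY2 22.4% and SPRED2 19.3%, and SPRY1, which is no member, had 207 per kb, above the 187 of SPRED1. SPRED3 had 32.9 per kb and SPRY3 has no row.

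Other genes of the pathway were counted from lists written from general knowledge, with levels per kb throughout. All 15 genes of the ERK cascade list, which begins with the receptor EGFR, were listed, with a median of 657. The highest was MAP2K2, which encodes MEK2, with 1369, and the lowest NF1, the RAS inactivator that SPRED proteins recruit, with 23.6. DUSP6 was thus above each of these 15 genes. Of 10 genes known as direct targets of ERK signalling, 10 were listed with a median of 929, from FOS, an immediate early transcription factor, with 37.3, to CCND1, the G1 cyclin, with 2443.

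The 10 JNK and p38 pathway kinases had a median of 268, from MAP2K6 with 6.79 to MAPK13, which encodes p38 delta, with 1066. Of 11 atypical dual-specificity phosphatases, which lack the kinase-binding domain of the MAP kinase phosphatases, 9 were listed, with a median of 416, from DUSP19 with 7.59 to DUSP14 with 612. Their median was below the 541 of the 9 genes, and their highest level was below DUSP6, DUSP4, DUSP1 and SPRY4. The 6 Sprouty partners had a median of 206, from the ubiquitin ligase CBL with 139.9 to CAV1, the caveolar protein, with 2599.

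**Figure D4:**
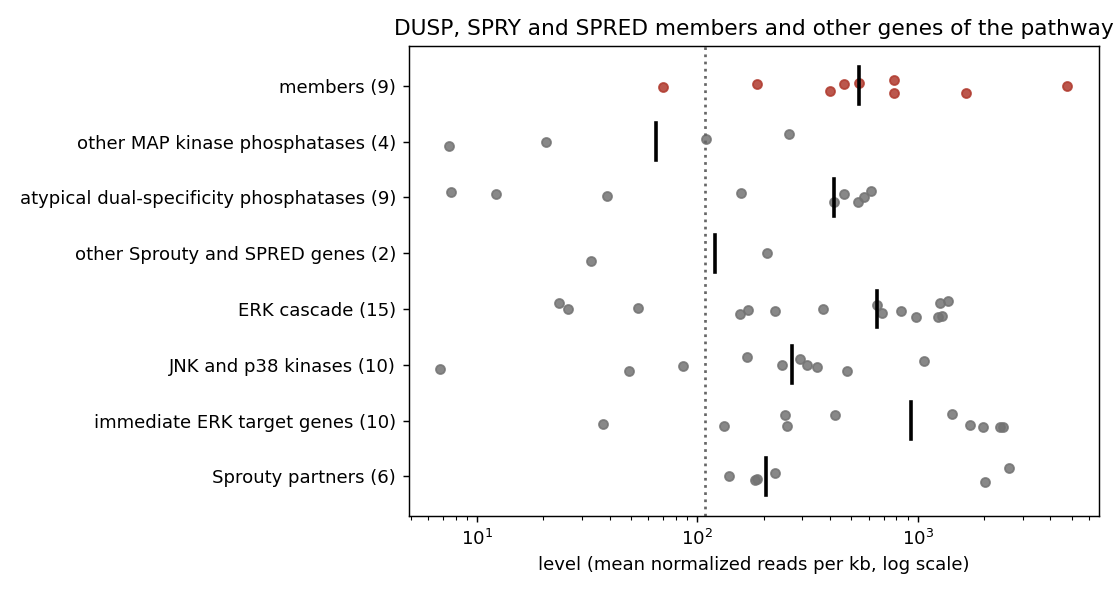
Level in mean normalized reads per kb (log scale) of the 9 genes in red and of the listed genes of 7 pathway lists in grey, with the number listed in brackets. Black bars are medians and the dotted line is the median of all listed genes at 108 per kb, and the 9 genes spread from 70.2 to 4769.7.

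The cell line was checked by markers. Of 6 genes that a mesenchymal breast cancer line should express all were listed, from CD44 with 427 per kb to LGALS1 with 10596. Of ESR1, PGR, CDH1 and ERBB2, only ERBB2 was listed, with 44.3 per kb, and of 5 markers of leukocytes, endothelium and liver only PECAM1, with 4.08 per kb.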

How the data were processed

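The authors aligned the mRNA reads of the DMSO and KH-3 libraries of MDA-MB-231 cells to GENCODE release 24 transcripts (hg38) by STAR. The authors obtained counts per transcript by eXpress and normalized and compared them in DESeq2. Tool versions are not given in the sources used here. The deposited mean normalized read count, a signal averaged over libraries and not divided by length, was the only column used. The other value columns hold the authors' log2 fold change, p-value and q-value and were not used, so no test was run.

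Each mean was divided by the transcript length in the table and summed per gene. Structure, coordinates and 3′UTRs came from GENCODE release 44, matched by transcript ID without version. All 21 transcripts matched, 12 with equal length. Of the 9 leading transcripts 2 had equal length, and the largest difference was 10.3%. The stop codon preceded every 3′UTR counted. A 3′UTR was found for 94.4% of 12120 genes. The sums were tested on simulated data.

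The genes and lists were chosen with earlier results of these data known. Named were the 9 genes with their transcripts, and the highest and lowest gene of each list. Further family genes, DUSP16, SPRY1 and SPRED3 among them, and the grouping by known role were chosen after values were seen. The planned description of the proteins was not made, and some genes of the pathway are not reported here. Python 3.11.15, numpy 2.4.6, pandas 2.3.3 and matplotlib 3.10.9 were used.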

Additional observations from a re-analysis of the deposited data

How the results depend on the processing

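No paired analysis was possible because the table has 1 mean per transcript and no value per library, and for the same reason no library could be left out and no other normalization or count test could be run. All 9 genes were listed also with coding transcripts only and with a minimum mean of 20. The ratio of DUSP6 to DUSP10, the ends of the order, was 67.9 and became 59.2 with coding transcripts only, 35.8 with leading transcripts only, 47.3 without length correction and 28.8 with the longest transcript as the length. Without length correction DUSP4 was the highest, with a summed mean of 9117 against 8257 for DUSP6, a ratio of DUSP6 to DUSP4 of 0.906, and 1 of the 9 genes, DUSP10, kept its place. The longest-transcript ratio of DUSP6 to DUSP10, and the ratio of DUSP6 to DUSP4 and the family shares under each alternative, were added after the data had been seen. By level per kb the order of the 9 genes was the same with coding or leading transcripts only and with the minimum mean, while dividing by the longest transcript exchanged SPRY2 and SPRED2. By their construction these 4 alternatives cannot raise a level per kb. The lowest level was 1877 for DUSP6, 1627 for DUSP4, 783 for DUSP1, 658 for SPRY4, 525 for DUSP5, 368 for SPRY2, 365 for SPRED2, 178 for SPRED1 and 57.5 for DUSP10. DUSP6 alone moved by over 1.5 times, and it had the most listed transcripts of the 9 genes, with 4. By share of reads in place of level per kb, the leading transcripts held 48.8% of DUSP6 and 88.2% or more of the other genes. The pentamer count of 7 genes became 6 with the heptamer and 8 with any annotated coding transcript. Over all genes, the leading coding transcript held the pentamer in 71.2% and the heptamer in 33.4%. The share over all genes with any annotated coding transcript was not computed, so the count of 8 has no background. The depth and the replicate error are unknown, which limits every level given.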
